A study of Mus musculus with 6 samples.

Results

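A set of 7 genes of mouse chromosome 14 separated natural killer (NK) cells labelled as knockouts of the microRNAs miR-15a and miR-16-1 from control cells. They were Gfra2, Mtmr9, Rcbtb2, Lpar6, Dnajc15, Epsti1 and Lrmda. They are 7 of the 19938 genes measured and were represented by 8 probe sets, 2 of them for Mtmr9. They were selected on the 15a/16-1FKO minus Ctrl difference of these same arrays, because they share a chromosome with the deleted locus and differed widely. Their differences are therefore given as a description, and nothing is read from whether a test of them passes a threshold. Expression was measured on Affymetrix mouse gene arrays, 3 for each genotype, in NK cells sorted from spleens of C57Bl/6 mice aged 8 to 12 weeks by the presence of YFP, CD27 and NK1.1 and the absence of CD3. The labels call the genotypes 15a/16-1FKO and Ctrl. Cells of both genotypes carried YFP, and the labels name neither a Cre driver nor the alleles of the Ctrl mice. Per the study's design, the 3 arrays within each genotype were technical replicates, but the levels of sex-linked transcripts go against a single RNA source for the Ctrl arrays. Every SD, SE and p-value therefore measures the spread between arrays, and whether that spread is technical or lies between mice or pools is not known.

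miR-15a and miR-16-1 are short RNAs cut from neighbouring hairpins of the long transcript Dleu2, and they lower the messenger RNAs that pair with their seed, the first part of the mature sequence. In lymphocytes this family restrains cell cycle and survival genes. NK cells, lymphocytes of innate immunity, kill virus-infected and tumour cells, and CD27 marks their less mature stages. The 7 genes belong to unrelated families, and genes on the same chromosome are inherited together unless recombination separates them. An effect of the deletion and an effect of any other allele that travels with it on chromosome 14 therefore cannot be told apart in a comparison of these genotypes.

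The deleted microRNAs share their seed, bases 2 to 8, shown in capitals. The sequences are those of RefSeq on GRCm38.p6, with miR-15a-5p at chr14:61632075-61632096 and miR-16-5p at chr14:61631936-61631957, both on the minus strand. They are shown because Mir15a and Mir16-1, to which the 15a/16-1FKO label refers, give these mature sequences.
miR-15a-5p: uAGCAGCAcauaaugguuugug
miR-16-5p: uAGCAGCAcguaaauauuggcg
The seed AGCAGCA is identical in both, and Mir16-2 on chromosome 3 gives the same mature miR-16-5p. No transcript sequence was used here, so matches of this seed in messenger RNAs of the 7 genes were not analysed.

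The targeted locus and the cell type were checked first. The Mir15a probe set stood at 4.37, 3.53 and 3.43 (log2) in the 15a/16-1FKO arrays, against 7.14, 6.02 and 6.69 in the Ctrl arrays, without overlap. All 12 NK cell markers lay above 4.13, the level under which 95% of 1027 olfactory receptor genes lay and which is used here as a mark of background. The Mir16-1 probe set lay under this level in every array, at 2.61, 2.68 and 3.00 in 15a/16-1FKO and 3.19, 3.20 and 3.77 in Ctrl. Its difference was -0.63 (SE 0.19, limma adjusted p = 0.999), so loss of miR-16-1 could not be read from these arrays. Of the markers of other cells, 4 of 9 T cell, 3 of 8 B cell, 5 of 11 myeloid and 4 of 6 erythroid and platelet genes lay above 4.13. Median differences of these 5 lists lay between -0.04 and 0.12, and 0 of the 46 measured markers passed the threshold (limma, adjusted p under 0.05 over all genes), with 2 at an unadjusted p under 0.05. Over all genes 0.0201% passed the threshold and 3.47% had an unadjusted p under 0.05, so these counts are near the background. The 2 markers were the T cell gene Cd28 and the myeloid gene S100a8, both higher in 15a/16-1FKO arrays. Of the T cell list 6 genes were higher and 3 lower, and of the myeloid list 6 higher and 5 lower. Cd28 was at 8.50, 8.48 and 8.31 in the 15a/16-1FKO arrays, against 8.14, 7.91 and 7.94 in the Ctrl arrays, without overlap, a difference of 0.43 (SE 0.14, limma adjusted p = 0.999). S100a8 was at 8.09, 7.35 and 8.08 in the 15a/16-1FKO arrays, against 7.29, 7.61 and 6.30 in the Ctrl arrays, which overlap, a difference of 0.77 (SE 0.32, limma adjusted p = 0.999). Their part in the differences of the 7 genes was not tested. Sex-linked transcripts varied within a genotype: Xist was at 7.56, 8.58 and 8.84 in the 15a/16-1FKO arrays, against 9.65, 3.89 and 8.86 in the Ctrl arrays. The Y-linked Eif2s3y was at 7.88, 6.60 and 6.18 in the 15a/16-1FKO arrays, against 2.33, 7.95 and 6.29 in the Ctrl arrays. Ctrl replicates 1 and 2 thus lay at opposite ends of both transcripts, whereas each of the other 4 arrays had Xist at 7.56 or more and Eif2s3y at 6.18 or more. Arrays of 1 RNA sample would not differ in this way, so these values conflict with the description as technical replicates. Within 15a/16-1FKO the Y-linked Kdm5d (7.01, 6.04 and 5.04) and Uty (5.82, 3.77 and 3.20) fell with Eif2s3y from replicate 1 to 3, while Xist rose. Whether these 3 arrays shared 1 RNA source is not known. With Xist minus the mean of 3 Y-linked genes as a covariate, the log2 difference of each of the 7 genes moved by at most 0.003. Between genotypes Xist differed by 0.86, and the Y-linked Eif2s3y, Kdm5d and Uty by 1.36, 0.34 and 0.60. The covariate was thus nearly balanced between genotypes, so the shift had to be small and shows nothing about an effect of sex.

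Of the 7 genes, 5 were higher and 2 were lower in the 15a/16-1FKO arrays, and in each gene the 3 arrays of 1 genotype lay wholly above or below the other 3. Over all genes, 8.33% showed no overlap between genotypes in either direction, 3.68% with the 15a/16-1FKO arrays higher and 4.65% with them lower. The threshold was passed by 3 of the 7, all of them higher, where 0.0201% of all genes passed it in either direction and 0.015% as higher. Because this contrast chose the genes, these counts are given beside the background and nothing is read from them. Those 3 were Gfra2, Mtmr9 and Rcbtb2. Of all genes only they and Mir15a passed, so the 0.015% is these 3 genes and the 0.0201% is these 3 with Mir15a. Rcbtb2 lost the threshold in 10 of 14 alternatives, among them each of the 6 that leave out 1 array. When every probe set of the table was tested in place of 1 a gene, 0 of the 7 passed. The median size of the 7 differences was 1.11 on the log2 scale, against 0.11 over all genes. In bulk RNA, more cells that express a gene and more RNA per cell cannot be told apart.

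**Figure D1:**
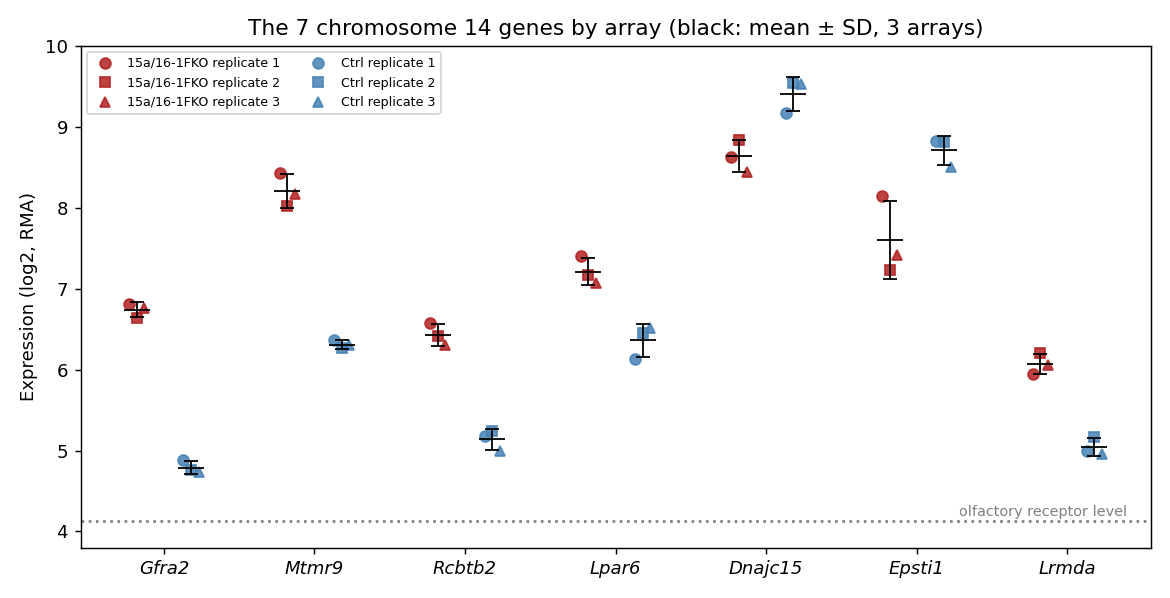
Expression of the 7 chromosome 14 genes in each array (y axis, log2 RMA values), with 15a/16-1FKO arrays in red at the left and Ctrl arrays in blue at the right of each gene, symbols for replicates 1 to 3 and black bars for the mean ± SD of 3 arrays. The groups do not overlap in any of the 7 genes, and every point lies above the dotted olfactory receptor level of 4.13.

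The receptors among them are Gfra2 and Lpar6. Gfra2 encodes a co-receptor that sits in the membrane by a lipid anchor, binds the neurotrophic ligand neurturin and signals through the kinase Ret. Its level was 6.81, 6.64 and 6.76 in the 15a/16-1FKO arrays, against 4.88, 4.76 and 4.74 in the Ctrl arrays. The groups were 1.76 apart at their closest, the widest gap of the 7 genes, and within each genotype the arrays lay close together. The means were 6.74 ± 0.09 in 15a/16-1FKO and 4.79 ± 0.08 in Ctrl arrays (SD, n = 3 each), a log2 difference of 1.95 (SE 0.13) or 3.85-fold. By size of the difference Gfra2 ranked 2 among all genes, after Mir15a.

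Lpar6 encodes a G protein-coupled receptor for lysophosphatidic acid, a lipid mediator made outside cells. It stood at 7.40, 7.17 and 7.07 in the 15a/16-1FKO arrays, against 6.13, 6.45 and 6.52 in the Ctrl arrays. The lowest 15a/16-1FKO array was 0.55 above the highest Ctrl array. The log2 difference was 0.85 (SE 0.16), or 1.80-fold. In the GRCm38.p6 gene table Lpar6 lies within Rb1, the gene of the retinoblastoma tumour suppressor. Rb1 itself had 6.80, 6.42 and 6.50 in the 15a/16-1FKO arrays, against 7.04, 6.52 and 6.26 in the Ctrl arrays. Its groups overlapped, with a difference of -0.03 (95% interval -0.50 to 0.44, limma).

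Mtmr9 encodes a myotubularin without phosphatase activity that binds and stimulates active family members acting on phosphoinositides, the signalling lipids of internal membranes. Its brighter probe set was at 8.43, 8.02 and 8.17 in the 15a/16-1FKO arrays, against 6.37, 6.27 and 6.31 in the Ctrl arrays. The spread was 0.21 (SD) in 15a/16-1FKO and 0.05 in Ctrl arrays, both small beside the log2 difference of 1.89 (SE 0.15), or 3.71-fold. A second Mtmr9 probe set read 6.94, 6.57 and 6.87 in the 15a/16-1FKO arrays, against 4.91, 5.08 and 4.65 in the Ctrl arrays. It showed the same order of the groups, with a difference of 1.91 (SE 0.17). These probe sets report the same RNA samples and are not replicates of the genotype.

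Rcbtb2 encodes a protein with RCC1 repeats and a BTB domain, and Lrmda a leucine-rich repeat protein whose loss in humans causes albinism. Rcbtb2 was at 6.58, 6.41 and 6.30 in the 15a/16-1FKO arrays, against 5.18, 5.24 and 5.00 in the Ctrl arrays, a gap of 1.06. Its difference was 1.29 (SE 0.14), or 2.44-fold. Lrmda was at 5.95, 6.20 and 6.06 in the 15a/16-1FKO arrays, against 5.00, 5.17 and 4.96 in the Ctrl arrays. That is a gap of 0.78 between the groups and a difference of 1.03 (SE 0.14), or 2.04-fold.

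Dnajc15 and Epsti1 were the genes with lower levels in 15a/16-1FKO arrays, and no other measured gene lies between them. Dnajc15 encodes a J-domain co-chaperone of the mitochondrial inner membrane that works with the TIM23 protein import channel and, in mice, restrains respiratory complex I. It stood at 8.63, 8.84 and 8.44 in the 15a/16-1FKO arrays, against 9.17, 9.54 and 9.53 in the Ctrl arrays. The gap between the groups was 0.34, the narrowest of the 7, and the difference was -0.78 (SE 0.16), which is 1.71-fold higher in Ctrl.

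Epsti1 encodes an intracellular protein induced by interferon. It was at 8.15, 7.23 and 7.42 in the 15a/16-1FKO arrays, against 8.82, 8.81 and 8.50 in the Ctrl arrays. The 15a/16-1FKO arrays were spread more widely (SD 0.48) than in any other of the 7 genes, with replicate 1 nearest to the Ctrl arrays. The difference was -1.11 (SE 0.23), 2.16-fold higher in Ctrl, and -1.39 without 15a/16-1FKO replicate 1. That array was the highest of its genotype in 5 of the 7 genes, all except Dnajc15 and Lrmda, in which replicate 2 was highest.

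Upstream sequence was compared because the members of this neighbouring pair were lower together. RefSeq promoter windows on GRCm38.p6 matched 5 of the 7 genes in 6 windows, with none listed for Gfra2 and Mtmr9. The 250 bases before the start of Dnajc15 (chr14:77874918-77875167, minus strand) and of Epsti1 (chr14:77903989-77904238, plus strand) are shown with CpG dinucleotides in capitals.
Dnajc15: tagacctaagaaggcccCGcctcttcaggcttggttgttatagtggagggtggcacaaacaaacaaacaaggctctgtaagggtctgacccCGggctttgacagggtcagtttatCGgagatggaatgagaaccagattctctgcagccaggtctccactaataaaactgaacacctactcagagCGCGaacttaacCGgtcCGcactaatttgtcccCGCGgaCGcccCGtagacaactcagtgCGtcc
Epsti1: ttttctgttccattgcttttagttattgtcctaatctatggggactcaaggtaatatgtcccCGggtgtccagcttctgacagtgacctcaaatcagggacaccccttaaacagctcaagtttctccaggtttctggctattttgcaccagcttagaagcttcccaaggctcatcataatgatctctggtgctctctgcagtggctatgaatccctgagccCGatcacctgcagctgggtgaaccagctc
The Dnajc15 window held 12 CpG dinucleotides and the Epsti1 window 2, where the median over 32851 such windows was 6. Lrmda had 15, Lpar6 1, and the windows of Rcbtb2 6 and 1. The MYB motif CAACNG was searched on both strands, since the study's title names c-Myb. It occurred in 1 of the 6 windows, as CTGTTG at 235 bases before a start of Rcbtb2, and in 29.3% of all windows. The core of the interferon-stimulated response element, GAAANNGAA on either strand, occurred in 0 of the 6 windows, the Epsti1 window included, and in 7.13% of all.

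Along chromosome 14 the 7 genes lay in a few places rather than a continuous stretch. In the order of the 699 measured genes of the chromosome, Mtmr9 was the 19th gene beyond Mir15a and Gfra2 the 104th. Rcbtb2 and Lpar6 followed at 107 and 110, and Dnajc15 and Epsti1 at 139 and 140. Lrmda lay on the other side, 386 genes before Mir15a. Between Mtmr9 and Gfra2 lay 84 measured genes, between Gfra2 and Rcbtb2 2, between Rcbtb2 and Lpar6 2, and between Lpar6 and Dnajc15 28.

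**Figure D2:**
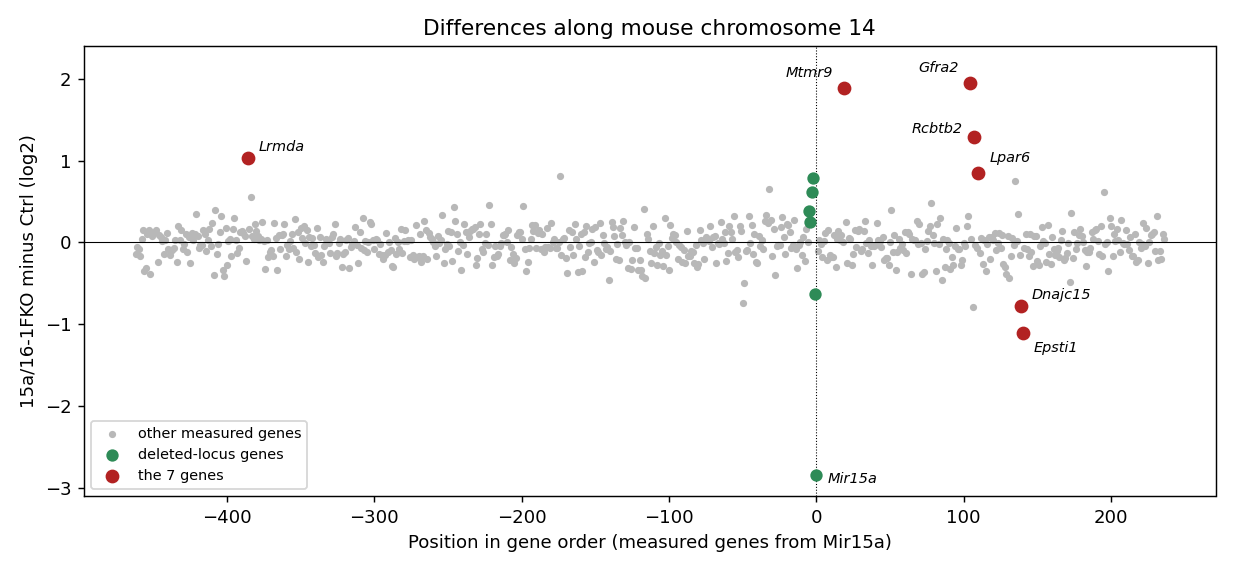
Log2 difference of 15a/16-1FKO minus Ctrl (y axis) for the 699 measured genes of chromosome 14 in gene order counted from Mir15a (x axis). The 7 genes are in red, genes of the deleted locus and next to it (Mir15a, Mir16-1, Dleu2, Kcnrg, Trim13, Spryd7) in green and all others in grey. Of the 7, 6 lie to the right of Mir15a, up to 140 genes away, and Lrmda lies 386 genes to the left.

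The genes around the 7 were taken by position, after the widest differences had gone into the set. Of the 28 nearest, 3 measured genes a side, 0 passed the threshold by limma. Of the 28, 2 had an unadjusted p under 0.05, Cysltr2 and Kcnma1, or 7.14%, where 3.47% of all genes did. The 28 had a median difference of 0.04 and a median size of 0.10, against 0.11 over all genes. In 5 there was no overlap between genotypes, 2 higher and 3 lower, which is 17.9% where all genes gave 8.33%. Cysltr2, a receptor for cysteinyl leukotrienes that lies between Gfra2 and Rcbtb2, had the largest difference among them. It was at 5.18, 5.00 and 4.46 in the 15a/16-1FKO arrays, against 5.63, 6.07 and 5.32 in the Ctrl arrays. It was thus lower while the genes of the set beside it were higher, with a difference of -0.79 (SE 0.24, limma adjusted p = 0.999).

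The immediate neighbours other than Cysltr2 had smaller differences. Beside Mtmr9 lay Fam167a at 0.01 (SE 0.16) and Xkr6, a member of the XK-related family of membrane proteins, at 0.25 (SE 0.13). Beside Gfra2 lay the adaptor gene Dok2 at 0.32 (SE 0.17) and Fndc3a at 0.04 (SE 0.16). Lpar6 was flanked by Mir687 at -0.07 (SE 0.14) and by Itm2b, the gene of a membrane protein mutated in human dementias, at -0.14 (SE 0.13). Beside the Dnajc15 and Epsti1 pair lay Gm1587 at -0.16 (SE 0.15) and Fam216b at -0.07 (SE 0.14). Lrmda lay between the zinc finger gene Zfp503 at -0.22 (SE 0.14) and Gm10248 at 0.16 (SE 0.16). The potassium channel gene Kcnma1, next after Gm10248, had a difference of 0.55 (SE 0.18, limma adjusted p = 0.999), with both means under the olfactory receptor level.

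**Figure D3:**
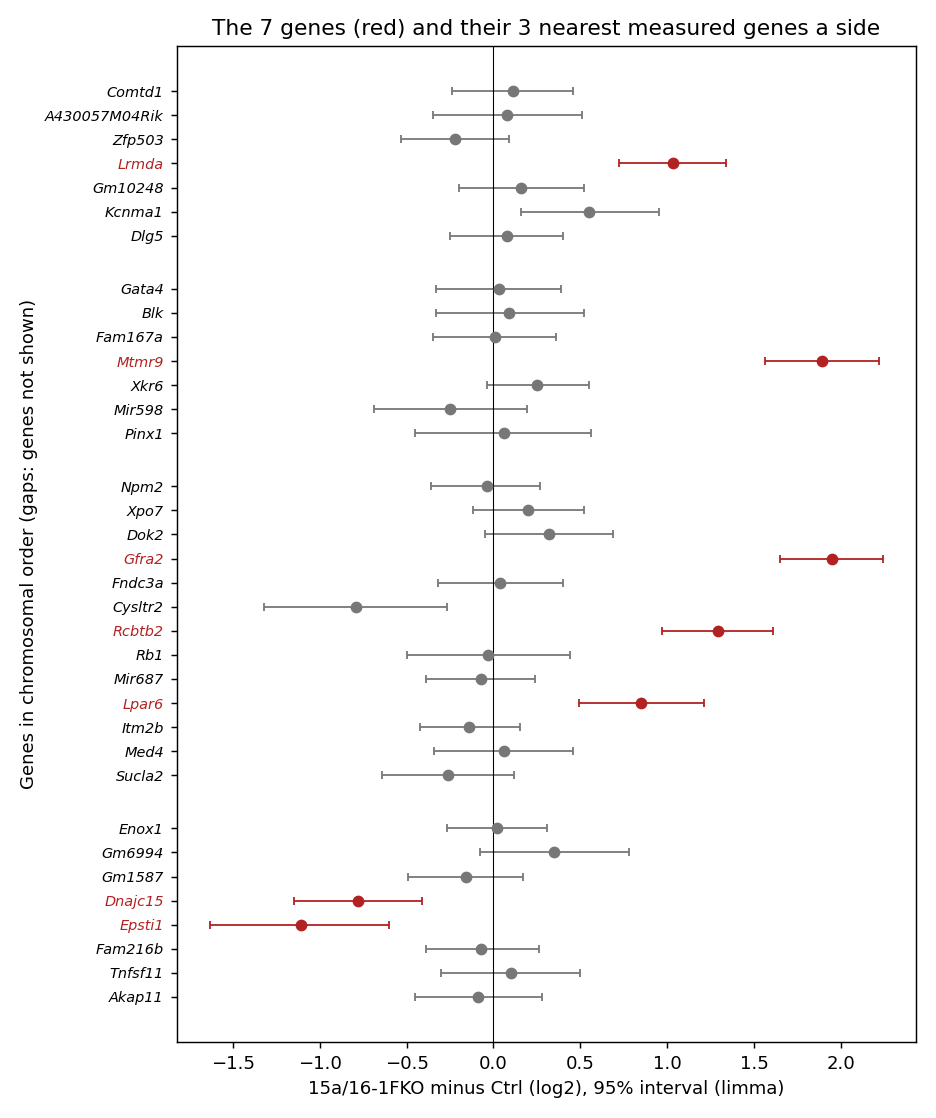
Log2 difference of 15a/16-1FKO minus Ctrl with its 95% interval from limma (x axis) for the 7 genes in red and their 3 nearest measured genes a side in grey, in chromosomal order down the page. The 7 genes lie between -1.11 and 1.95, and the 28 neighbours between -0.79 and 0.55.

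Outside the 7 genes and the deleted locus, no gene of the chromosome passed the threshold. The deleted locus stands here for Mir15a, Mir16-1, Dleu2 and the nearby Kcnrg, Trim13 and Spryd7, though the labels name only the microRNAs. Kcnrg (0.79) and Spryd7 (0.39), both without overlap, are thus left out of the counts below. Of 686 chromosome 14 genes outside the 7 and outside the deleted locus, 0 passed the threshold by limma, and 26 (3.79%) had an unadjusted p under 0.05, where all genes gave 3.47%. Genotypes did not overlap in 73 of them, or 10.6%, 31 higher and 42 lower, beside 8.33% of all genes. Between Mir15a and Epsti1 (bounds set after the values were seen) 17 of 134 such genes (12.7%) did not overlap, 5 higher and 12 lower. Before Mir15a the count was 48 of 456 (10.5%), and beyond Epsti1 8 of 96 (8.33%). Whether these shares differ from that of all genes was not tested.

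The choice of the 7 genes left out others of nearly the same size. The smallest difference among the 7 was that of Dnajc15, -0.78. Outside them, Mir15a at -2.84 belongs to the deleted locus. The potassium channel regulator gene Kcnrg, at 0.79 (SE 0.25), lies near Mir15a but is not named as deleted by the labels. Its mean was 7.08 in 15a/16-1FKO and 6.30 in Ctrl arrays. Rnase2b, a ribonuclease of the eosinophil type, had 0.81 (SE 0.58), which came from 15a/16-1FKO replicate 3 at 4.75 while the other 5 arrays lay between 2.06 and 2.32. Cysltr2 was next at -0.79. Ccdc122, 135 genes beyond Mir15a, had 0.75 (SE 0.17), and Gzmc, the gene of granzyme C, -0.74 (SE 0.14), each with both means under the olfactory receptor level. Among the 50 genes with the largest differences in the whole table, 11 lay on chromosome 14, which holds 3.51% of all measured genes. These were Mir15a, Rnase2b, Cysltr2, Kcnrg and the 7 genes, which were chosen for wide differences on this chromosome, so nothing is read from the count.

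No gene related to the 7 by family or pathway passed the threshold. In the 7 lists of relatives, 94 of 101 genes were measured. By limma 0 rose and 0 fell, 3 had an unadjusted p under 0.05, and the median difference was -0.01, the same as over all genes. Of all genes 0.0201% passed the threshold and 3.47% had an unadjusted p under 0.05. The counts in the lists are near these shares, so nothing is read from them. Of the 94, 4 lie on chromosome 14, namely Mtmr6, Rcbtb1, Timm23 and Dct, with differences of -0.09 (SE 0.18), 0.19 (SE 0.16), 0.02 (SE 0.26) and 0.02 (SE 0.22).

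Of 13 myotubularins beside Mtmr9, 4 had positive and 9 negative differences, from -0.14 (Mtmr11) to 0.15 (Mtm1, the founding phosphatase of the family). Mtm1 and Mtmr4 had the smallest p, with differences of 0.15 (SE 0.14) and -0.13 (SE 0.14). Mtmr6, an active phosphatase that binds Mtmr9, was at 6.60 ± 0.11 in 15a/16-1FKO and 6.69 ± 0.31 in Ctrl arrays (SD, n = 3 each). The 10 measured ligands, receptors and partners of the glial cell line-derived neurotrophic factor family gave differences from -0.26 for Nrtn, the gene of neurturin, to 0.27 for the co-receptor gene Gfra3. Nrtn (SE 0.17) and Gfra3 (SE 0.18) also had the smallest p of that list. Ret, the kinase with which Gfra2 signals, was at 4.16 ± 0.40 in 15a/16-1FKO and 4.16 ± 0.40 in Ctrl arrays, close to the olfactory receptor level of 4.13.

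Among 12 measured RCC1-repeat genes, 7 had positive and 5 negative differences, with Sergef at -0.31 (SE 0.15) and Rpgr at 0.43 (SE 0.27) at the ends. Sergef and Rpgr also had the smallest p. Rcbtb1, the closest relative of Rcbtb2, was at 6.46 ± 0.28 in 15a/16-1FKO and 6.27 ± 0.06 in Ctrl arrays, and these groups overlapped. Of 12 measured genes for lysophospholipid receptors and enzymes, 4 lay above the olfactory receptor level, and the differences ran from -0.12 to 0.33. The highest was that of P2ry10, a lysophosphatidylserine receptor (SE 0.20). Lpar2, another receptor of lysophosphatidic acid, had 0.25 (SE 0.14) and the smallest p, followed by P2ry10.

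All 12 genes of the TIM23 import channel and its motor lay above the olfactory receptor level, 5 with positive and 7 with negative differences. Timm50, the receptor subunit, had -0.32 (SE 0.19), and Dnajc19, the J-domain relative of Dnajc15, 0.15 (SE 0.14). These 2 genes had the smallest p of the list. Of 25 measured interferon-stimulated genes beside Epsti1, 8 had positive and 17 negative values, and the median was -0.06. The sensor gene Dhx58 had -0.59 (SE 0.15, limma adjusted p = 0.999) and the antiviral synthetase gene Oas2 0.44 (SE 0.13, limma adjusted p = 0.999), both with means over the 6 arrays under the olfactory receptor level. Among the 20 genes of this list above that level, differences ran from -0.35 (SE 0.18) for Bst2, which tethers budding virus particles to the cell, to 0.14 (SE 0.23) for Parp9. Of 10 pigment cell genes beside Lrmda, 3 lay above the olfactory receptor level. Slc24a5, an ion exchanger of pigment granules, had 0.35 (SE 0.13, limma adjusted p = 0.999), and Oca2, a membrane protein of these granules, -0.15 (SE 0.15), the pair with the smallest p.

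**Figure D4:**
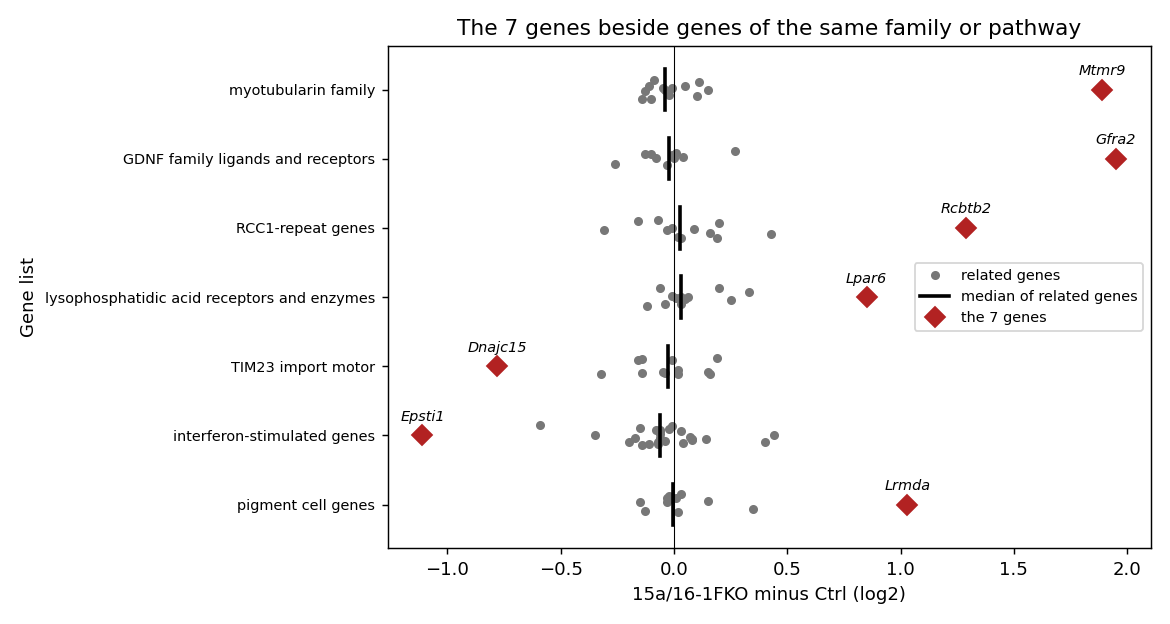
Log2 difference of 15a/16-1FKO minus Ctrl (x axis) for genes of each family or pathway list (grey points, with the list's median as a black bar) and for the gene among the 7 to which the list relates (red diamond). Each red diamond lies outside the range of its list, which runs from -0.59 to 0.44 at its widest. The 7 genes were chosen for wide differences in this same contrast, so nothing is read from their place outside the lists.

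The patterns of the 7 genes over the 6 arrays were also set beside those of all other genes, by the root mean square distance of log2 values centred on each gene's mean. This distance includes the genotype difference that chose the 7 genes, so the values are a description only. Gfra2 and Mtmr9 lay closest to each other, at 0.08. Rcbtb2 and Lrmda were 0.19 apart, and Dnajc15 and Epsti1 0.41. Outside the 7, the nearest gene to Gfra2, Mtmr9 and Rcbtb2 was Sympk, a scaffold gene of messenger RNA 3′ end processing on chromosome 7, at 0.46, 0.45 and 0.26. Its mean was 8.47 in 15a/16-1FKO and 7.38 in Ctrl arrays. The second nearest was Elp4 for Gfra2 (0.58) and for Mtmr9 (0.56), and Tonsl for Rcbtb2 (0.27).

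Lpar6 was nearest to Kit, the stem cell factor receptor gene, at 0.15 and to Olfr1350 at 0.16. Dnajc15 was nearest to Olfr412 (0.12) and Cfap126 (0.14), and Epsti1 to 4930548H24Rik (0.18) and the nucleotide sugar transporter gene Slc35d2 (0.24). Lrmda was nearest to Cdk7, a kinase gene of transcription and the cell cycle, at 0.14 and to Ccdc122 at 0.17. Of the named nearest genes Ccdc122 alone lies on chromosome 14.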

How the data were processed

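The authors deposited log2 expression values of 35556 probe sets on 6 arrays, 3 labelled 15a/16-1FKO and 3 Ctrl. The values lay between 0.74 and 13.6, with array medians from 4.23 to 4.33. Per the submitters' processing notes, RMA and Partek 6.6 were used, with roles unstated and the genome build not given in the sources used here. Array data carry no read depth, so the number of arrays limits the precision.

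GEO's platform annotation gave 1 symbol to 21789 probe sets. A gene's brightest probe set represented it, with no filter on dim ones. Genotypes were compared with limma 3.58.1 in R 4.3.3 (lmFit, eBayes, two-sided, Benjamini-Hochberg over 19938 genes, threshold 0.05). The code was also run on simulated data with independent noise and known shifts. Those data held no differences between pools or sexes, so the run says nothing about such effects. Gene order came from the GRCm38.p6 gene table. The 7 genes and all lists were chosen with earlier results of these data known. Named genes are the 7, their neighbours, the 6 other chromosome 14 genes with the largest differences, the 2 genes with the smallest p in each list and the 2 nearest in pattern to each of the 7. Some further list members were named after their values were seen. Alternatives covered scaling, brightness, the replicate number as a block, the prior, the probe set, all probe sets, a sex-linked covariate and each array left out.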

Additional observations from a re-analysis of the deposited data

How the results depend on the processing

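None of the differences of the 7 genes changed sign under 14 alternatives. Since the groups do not overlap in any of the 7, leaving out 1 array could not change a sign. Several other alternatives, such as the replicate block and the prior, leave the differences as they are, so nothing is read from the unchanged signs. Of the 3 genes past the threshold, Rcbtb2 lost it in 10 of the 14, including the replicate block, the trended and robust prior, the sex-linked covariate, every probe set and each array left out. Gfra2 and Mtmr9 lost it in 1 each, with every probe set. This contrast chose the 7 genes, so nothing is read from which of them kept the threshold. Without 1 array in turn, Epsti1 moved most, from -1.39 to -0.93, and Gfra2 lay between 1.91 and 1.99. When every probe set of the table was tested, 0 of 35556 probe sets and 0 of the 7 genes passed by limma, with 1214 probe sets and all 7 genes at an unadjusted p under 0.05. The cause was not tested. With the sex-linked covariate 2 genes passed, and without 1 array between 2 and 3. Among chromosome 14 genes outside the 7 and outside the deleted locus, those without overlap numbered 73 as reported, 40 when only genes at or above median brightness were kept, and 126 to 153 without 1 array, as fewer genes and fewer arrays make likely. With the replicate number as a block 3 genes passed, 2 of them among the 7. Deviations of same-numbered arrays correlated at 0.048, 0.148 and 0.141, so that the numbers were not taken as pairs. By deviations each 15a/16-1FKO array correlated best with the Ctrl array of its number, replicate 1 only narrowly (0.042 with Ctrl replicate 2). By levels 15a/16-1FKO replicate 1 correlated best with Ctrl replicate 2, at 0.986 against 0.984 with Ctrl replicate 1. No other count changed by more than 1.5 times. Whether folds of genes near the level of 4.13 are compressed in these arrays was not tested.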
